A study of Homo sapiens with 8 samples.

Results

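The genes described here are MDM2, MDM4 and 32 other genes known as regulators or direct transcriptional targets of p53, 34 listed genes in all, in HEK293 cells that overexpressed an intronic transcript of KLHL29. Members were the genes of this list with an array feature that had a value in all 8 samples and was annotated to that gene alone. This gave 30 genes with 54 features, out of 13469 genes and 25094 features tested in the series. FDXR, CYFIP2 and PIDD1 had no such feature here, and the features of DRAM1 had no value in any sample. Where a gene had several features, it was represented by the feature with the highest mean log2 intensity, and the others served as checks.

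The 8 samples are HEK293 cells, a line derived from human embryonic kidney by transformation with adenovirus, measured on Agilent oligonucleotide arrays. Cells of both groups carried the linearised pBudCE4.1 vector, with the KLHL29 intronic insert in the sense orientation in 4 samples and in the antisense orientation in the other 4, and both had been selected with zeocin at 50 µg/ml for a month. Each group is a mixed population of resistant cells from a single transfection, thawed and grown separately for each replicate, so a p-value measures the spread between these cultures and cannot separate the insert from the pool of transfectants that carries it. Cells without the vector, or with the vector alone, were not analysed here, and in bulk RNA fewer cells that express a gene cannot be told apart from less RNA per cell. Replicates 1 and 3 of each construct were labelled with Cy3 and replicates 2 and 4 with Cy5. The submitters left 1 replicate of each construct out of their tests because of the spread it added, without naming it. The same criterion, the lowest coefficient of variation of the remaining replicates, picked sense 4 and antisense 2 here, and the median over the members is also given for the other 6 samples.

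The feature intensities of any 2 samples correlated at 0.960 to 0.996 over features detected in both constructs. All 5 measured markers of HEK293 cells (NEFL, NEFM, INA, VIM and LIN28B) were detected in both constructs. So were COL1A1, 1 of 5 measured fibroblast markers, CD3E, 1 of 3 blood markers, and KRT14, 1 of 2 keratinocyte markers, and the other markers of these cell types lay under the detection limit in both.

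p53 is a transcription factor that accumulates after DNA damage and other stresses and switches on genes that stop the cell cycle, repair DNA or start cell death. It also switches on its own brakes, chief among them MDM2, the ubiquitin ligase that marks p53 for destruction. In HEK293 cells an adenoviral early protein binds p53 and dampens its activity, which keeps the response of its targets in check. Zeocin belongs to the bleomycin family of drugs that cut DNA. p53 binds DNA through a decamer motif, and a full response element is a pair of decamers with a short spacer.

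RefSeq promoter windows (GRCh38.p14, 250 bases before to 50 after a start) matched 28 of the 34 listed genes with 42 windows, several of them overlapping windows of the same gene. The p53 decamer, whose pattern is its own reverse complement and so covers both strands, occurred in 8 of these 42 windows (19.0%), against 6.63% of all 35116 windows of the same length. A pair of decamers with a spacer of at most 13 bases occurred in 1 member window, that of DDB2, and in 10 of all windows (0.0285%). The DDB2 window is shown because it holds this pair. It lies at chr11:47214724-47215023 on the plus strand, the decamers are in capitals at bases 256 to 276 of the window, and the spacer is 1 base.
DDB2: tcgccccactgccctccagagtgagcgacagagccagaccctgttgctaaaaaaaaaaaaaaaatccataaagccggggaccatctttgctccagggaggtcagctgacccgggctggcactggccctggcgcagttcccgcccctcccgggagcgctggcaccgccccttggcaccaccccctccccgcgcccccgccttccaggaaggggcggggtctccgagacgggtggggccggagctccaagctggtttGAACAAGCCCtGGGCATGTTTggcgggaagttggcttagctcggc
For the other measured members with a decamer, 30 bases around it are shown, with the decamer in capitals. They are shown because sense 2 and 4 were the highest samples in some of these genes, as in DDB2, and not in others. Their positions are FAS chr10:88991299-88991328 on the plus strand, PLK2 chr5:58460199-58460228 on the minus strand, RPS27L chr15:63157517-63157546 on the minus strand, SESN1 chr6:109009018-109009047 on the minus strand, EI24 chr11:125569457-125569486 on the plus strand and AEN chr15:88621296-88621325 on the plus strand.
FAS: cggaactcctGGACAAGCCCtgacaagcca
PLK2: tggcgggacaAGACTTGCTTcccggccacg
RPS27L: ggcctagagcAGACAAGCCCgccccgccgc
SESN1: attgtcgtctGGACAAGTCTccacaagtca
EI24: cgtgcggcccGGGCATGCCCagtgcgggcg
AEN: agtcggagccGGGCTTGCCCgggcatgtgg
A match is a description of these letters and shows no binding. No decamer occurred in the windows of MDM2, PERP, TP53I3, ZMAT3, XPC and PLK3, where sense 2 and 4 were also the highest samples. TNFRSF10B and TP53INP1, with the same order, had no window. FDXR, which had no feature tested, had a window with a decamer that is not shown. A link between decamers and the order of the samples was not tested.

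Most members had higher mean intensities in the sense samples, and none passed the test singly. The sense minus antisense difference was positive for 28 of the 30 members, compared with 43.3% of all 13469 genes, and the exceptions were TP53I11 and FBXO22. The median difference over the members was 0.27 on the log2 scale, against -0.05 over all genes. All 30 members were detected in both constructs. Over the 11627 genes so detected the median was -0.02, and 47.5% were positive. The values ran from -0.19 for FBXO22 to 0.60 for SERTAD1. On the 6 samples without sense 4 and antisense 2 the median over the members was 0.22. In limma with dye in the model, 0 of 30 members passed an adjusted p of 0.05, where 0.0677% of all features (0.0319% higher and 0.0359% lower in sense) and 0.0594% of all genes did, and 4 members (SERTAD1, RRM2B, TP53INP1 and AEN) had an unadjusted p under 0.05 against 15% of all genes. The share of members with a small p was thus no larger than that of all genes. In the submitters' own kind of test (SAM, significance analysis of microarrays, on 6 samples), 0 of 30 members were called by their brightest feature. Of all 13469 genes by brightest feature, SAM called 200 higher and 21 lower (of features, 1.6% higher and 0.207% lower). With 4 samples per construct the median standard error of a member was 0.18, against a median difference of 0.27. After adjustment over all features, no single member could be told from the spread between replicates.

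**Figure D1:**
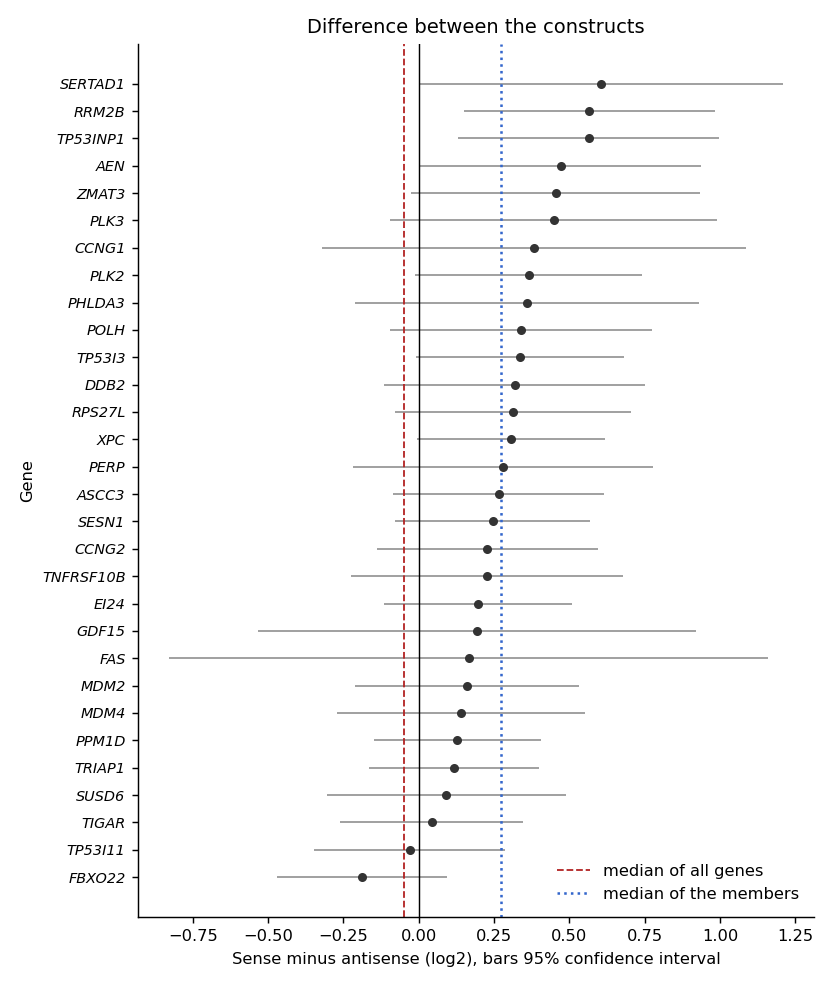
Sense minus antisense difference (log2) for each of the 30 members from limma, with 95% confidence intervals and n = 4 samples per construct. The dashed line is the median of all genes (-0.05) and the dotted line that of the members (0.27). Nearly all points lie right of 0, with intervals that mostly include it.

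The excess sat in particular samples. Taken as the deviation from each gene's antisense mean, the members had a median of 0.37 in sense 2 and 0.58 in sense 4, but 0.02 in sense 1 and 0.03 in sense 3. Antisense 2 stood at 0.11, and antisense 1, 3 and 4 between -0.05 and -0.02. For all genes detected in both constructs the same medians ran from -0.03 to 0.01. Sense 4 was the highest of the 8 samples for 11 members and sense 2 for 7. Both samples that stood high carried Cy5, as did antisense 2, while antisense 4, also labelled with Cy5, did not stand high.

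**Figure D2:**
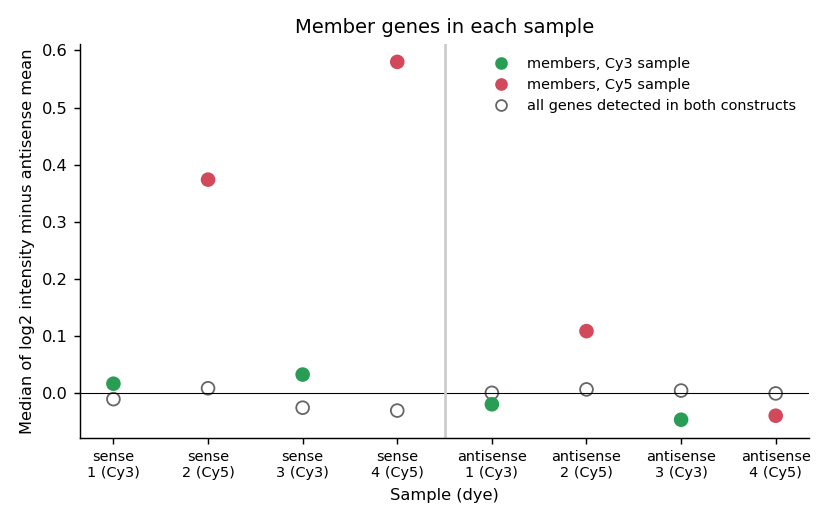
Median over the 30 members of log2 intensity minus the gene's antisense mean, for each sample (filled points, coloured by dye), and the same median over all genes detected in both constructs (open circles). Sense 2 and sense 4 stand at 0.37 and 0.58, and the other 6 samples between -0.05 and 0.11; antisense points centre on 0 by construction.

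Within the dyes the members therefore gave different pictures. Among the Cy5 samples 27 of 30 members had a positive difference, with a median of 0.47, where 43.3% of all genes were positive. Among the Cy3 samples 17 of 30 were positive, with a median of 0.07, where 44.8% of all genes were. Of the genes detected in both constructs, 47.8% were positive among Cy5 and 48.1% among Cy3 samples. With only 2 samples of each construct per dye, the dye and the samples that carry it cannot be told apart within a construct. The difference between the dyes was itself tested as an interaction in limma. It had an unadjusted p under 0.05 for 10 of 30 members, against 4.99% of all genes, and 0 members passed after adjustment (adjusted p at least 0.95), as did 0 of all features.

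**Figure D3:**
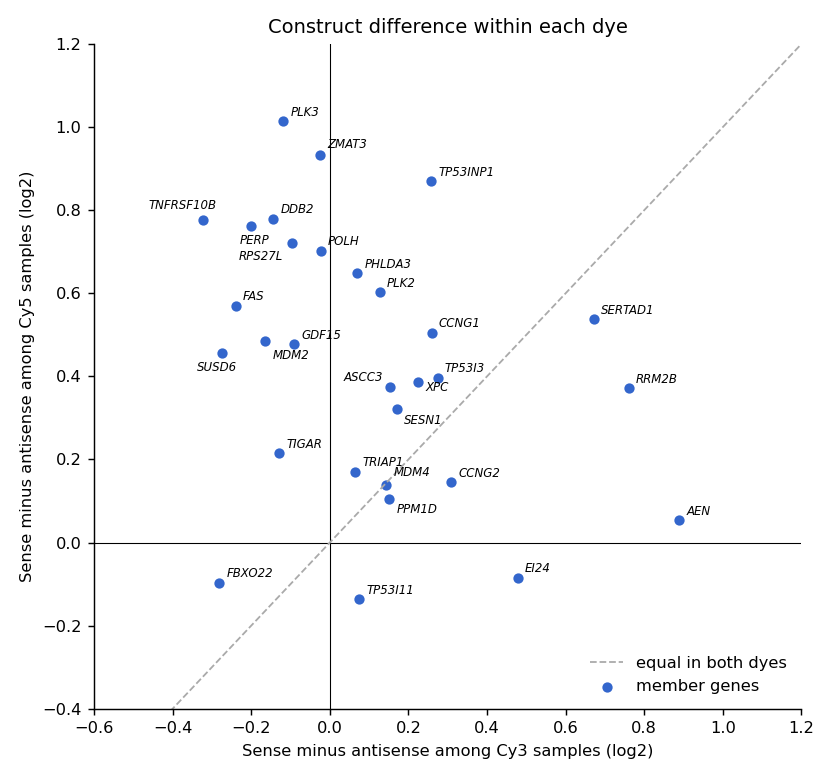
Difference between the constructs among the Cy5 samples against that among the Cy3 samples, log2, for the 30 members (2 samples per construct and dye). Of the 30 members 22 lie above the diagonal, farthest PLK3 (Cy5 minus Cy3 1.13), TNFRSF10B (1.10), PERP and ZMAT3 (both 0.96), and farthest below it lie AEN (-0.84), EI24 (-0.56) and RRM2B (-0.39).

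Counted gene by gene, sense 2 and 4 both lay above sense 1 and 3 for 19 of 30 members, where 28.6% of all genes had this order. Sense 2 and 4 lay above all 6 other samples for 11 members (MDM2, TNFRSF10B, PERP, TP53I3, TP53INP1, ZMAT3, RPS27L, DDB2, XPC, PLK2 and PLK3), where 5.91% of all genes did. In antisense, samples 2 and 4 lay above 1 and 3 for 8 members, where 24.6% of all genes did. Among the genes detected in both constructs these shares were, in turn, 23.4%, 6.65% and 18.6%. These orders were chosen for counting after the values had been seen and are given as descriptions. VIM, an abundant cytoskeletal gene that is no member, was singled out after its values were seen. It read 36.51 and 36.83 in sense 2 and 4 and 36.58 in antisense 2, against 35.62 to 35.89 in the other 5 samples. Of the measured HEK293 markers, VIM and INA thus had sense 2 and 4 above sense 1 and 3. NEFL, NEFM and LIN28B did not, and sense 4 was their lowest sense sample, at 31.18, 33.74 and 29.35. The part of dye, labelling or culture in the order of the members was not tested.

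**Figure D4:**
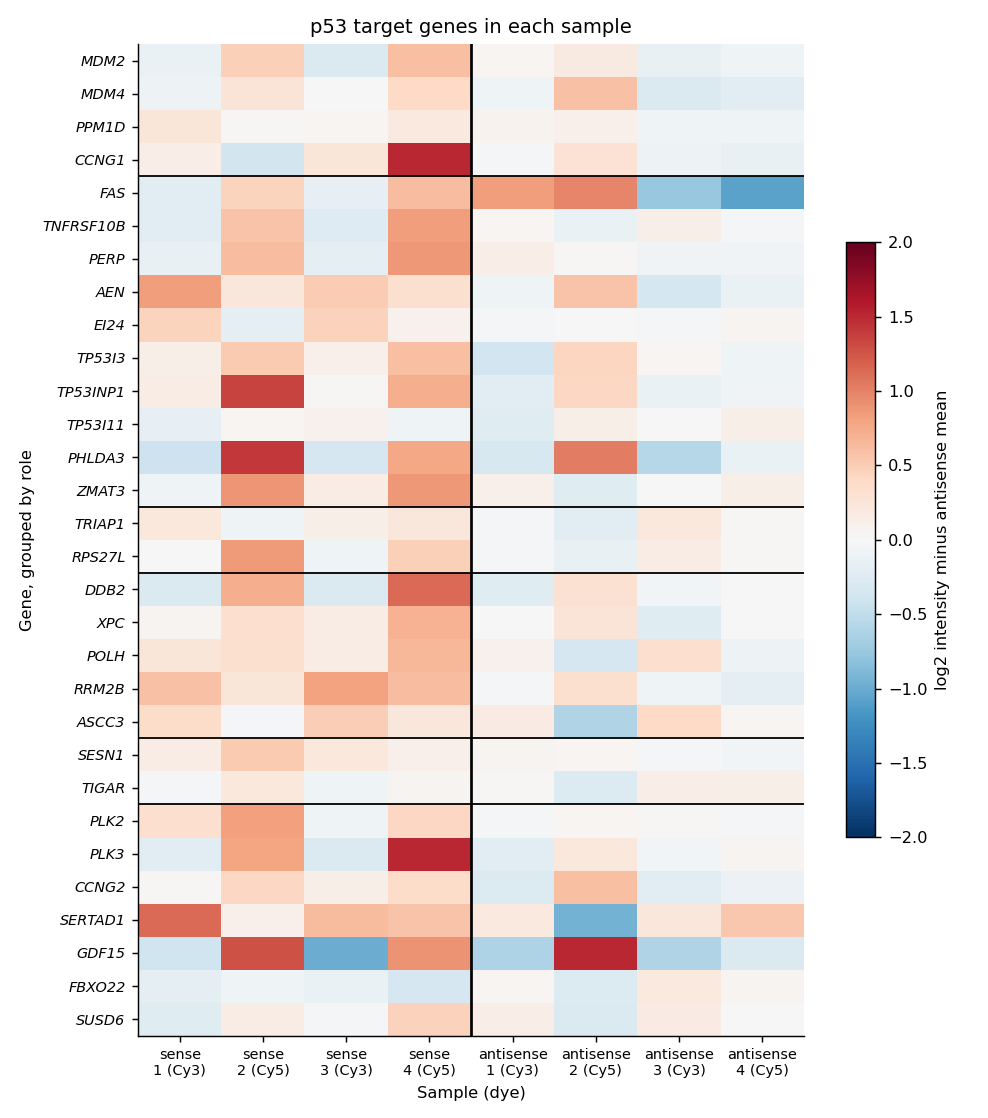
Log2 intensity of each member minus its antisense mean, by sample, with members grouped by role (feedback, cell death, survival, DNA repair, metabolism, cell cycle and other). Red cells gather in the sense 2 and sense 4 columns and, for PHLDA3 and GDF15, in antisense 2.

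The feedback regulators of p53 had small differences, with a median of 0.15 over the 4 genes. MDM2 by its brightest feature, 8376, read 29.40, 30.01, 29.25 and 30.14 in the sense replicates in order, and 29.58, 29.72, 29.40 and 29.45 in those of antisense (log2 intensity, the order used throughout). Sense 2 and 4 were highest and sense 1 and 3 lay within or below the antisense range, so the groups overlapped. The difference was 0.16 (SE 0.17, adjusted p = 0.64 in limma). MDM4, the MDM2 relative that holds p53 inactive without degrading it, differed by 0.14 (SE 0.19), and its highest reading, 29.37, was in antisense 2. The other MDM4 features differed by 0.54 and -0.38. PPM1D, the phosphatase that resets the damage response, was at 30.42 ± 0.11 in sense and 30.29 ± 0.10 in antisense (SD, n = 4). CCNG1, which encodes cyclin G1 and is a feedback inhibitor of p53, differed by 0.38 (SE 0.32). Sense 4 alone stood out, at 33.70, where the other 3 sense samples read 31.83 to 32.44 and antisense 32.04 to 32.49, and without sense 4 the difference was -0.02.

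The other MDM2 features gave other differences. They were annotated to the reference transcript and were dim, at 24.04 to 26.86 against 29.25 to 30.14 for feature 8376. Feature 20255 read 25.80, 25.61, 25.88 and 26.03 in sense and 26.63, 26.76, 26.45 and 26.86 in antisense. All its sense samples lay below all antisense samples, with a difference of -0.85 (SE 0.18, adjusted p = 0.21). Feature 23766 ran the other way, with 26.20, 26.28, 26.26 and 26.01 in sense against 24.15, 25.13, 25.24 and 24.04 in antisense. Its antisense readings lay under the inferred detection limits, so only a bound on the fold can be given. Set against the mean of those limits, the sense mean was at least 1.28-fold higher, and the difference did not pass in limma (adjusted p = 0.15). Sense 4, at 26.01, lay under the limits of antisense 1 and 2, 26.11 and 26.03. Feature 29095 was also detected in sense alone, without overlap between the groups, but with no bound above 1 (adjusted p = 0.23). Feature 14270, again detected in sense alone, differed by 0.45 with overlapping groups and likewise no bound above 1 (adjusted p = 0.35). The inferred limits were mostly lower in sense, so detection in sense alone is no measure of a difference. SAM on 6 samples called features 23766 and 29095 higher and 20255 lower. Which parts of the transcript these features read was not analysed here, and differences between features of a gene were not tested.

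**Figure D5:**
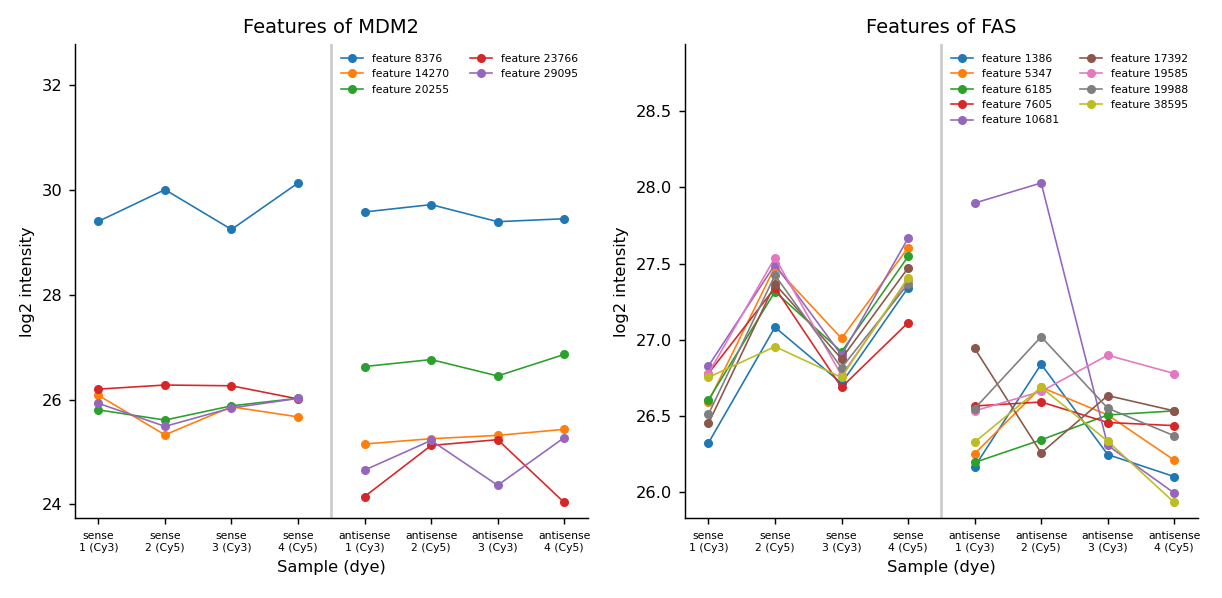
Log2 intensity of the 5 features of MDM2 (left) and the 9 of FAS (right) in each sample; lines join the readings of a feature within a construct and imply no order. MDM2 features disagree in direction, while the FAS features share high readings in sense 2 and 4, and feature 10681 stands apart in antisense 1 and 2.

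Among the death receptors, FAS, the receptor of FAS ligand, was the member with most features. All 9 had positive differences, and in all 9 sense 2 and 4 lay above sense 1 and 3. The brightest feature, 10681, read 26.83, 27.49, 26.90 and 27.67 in sense and 27.90, 28.03, 26.30 and 25.99 in antisense. Antisense 1 and 2 were thus the highest readings of this feature, and its difference was 0.17 (SE 0.45, adjusted p = 0.87). In each of the 8 other features antisense 1 and 2 lay below sense 2 and 4, and the differences were 0.40 to 0.76. Feature 5347, with the largest difference of FAS, read 26.59, 27.48, 27.01 and 27.60 in sense and 26.25, 26.69, 26.50 and 26.21 in antisense (SE 0.22, adjusted p = 0.27). Only sense 1 lay inside the antisense range there, and for 3 FAS features the constructs did not overlap. Some of these readings lay near the detection limit. In antisense 1, where the inferred limit was 26.11, features 1386, 6185 and 5347 read 26.16, 26.19 and 26.25, and the others 26.33 to 27.90. The 9 features are annotated to the same transcript and read the same RNA, so their number is no independent evidence.

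TNFRSF10B, the TRAIL receptor DR5, read 32.17, 32.97, 32.14 and 33.23 in sense and 32.44, 32.28, 32.52 and 32.37 in antisense. Sense 2 and 4 lay above every antisense sample and sense 1 and 3 below every one. Its difference over all samples was 0.23 (SE 0.20), made of -0.32 among Cy3 and 0.78 among Cy5 samples. The dye interaction of TNFRSF10B was 1.10 (SE 0.22, unadjusted p = 0.00082, adjusted p = 0.95 in limma). A second, dimmer feature of TNFRSF10B had the same order within sense and differed by 0.11.

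The other genes of cell death split into followers of that order and genes outside it. ZMAT3, an RNA-binding zinc finger protein, read 28.08, 29.04, 28.31 and 29.03 in sense and 28.27, 27.92, 28.17 and 28.28 in antisense. Here too sense 2 and 4 were highest and the Cy3 samples of the constructs differed by -0.02 (difference over all samples 0.45, SE 0.22, adjusted p = 0.37). TP53INP1, a stress-induced partner of p53 with a role in autophagy, had one of the larger differences, 0.56 (SE 0.20, adjusted p = 0.29), with sense 2 at 31.13 and sense 4 at 30.49, above the antisense samples (29.57 to 30.18) and above sense 1 and 3 (29.93 and 29.80). PERP, a membrane protein of desmosomes, differed by -0.20 among Cy3 and 0.76 among Cy5 samples. PHLDA3, which blocks AKT at the membrane, read 30.88 and 30.23 in sense 2 and 4 but also 30.48 in antisense 2, against 28.89 to 29.33 in the other 5 samples (difference 0.36, SE 0.26). The PHLDA3 difference was 0.07 without antisense 4 and 0.17 without sense 2. TP53I3, a quinone oxidoreductase, differed by 0.34 (SE 0.16, adjusted p = 0.36).

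AEN and EI24 had the reverse order. AEN, a nuclease of apoptotic cells, read 31.35, 30.74, 31.03 and 30.84 in sense and 30.42, 31.09, 30.17 and 30.38 in antisense by its brighter feature, so that sense 1 and 3 were the higher sense samples and antisense 2 was high among antisense (difference 0.47, SE 0.21, adjusted p = 0.35). The other AEN feature read 30.66 and 31.11 in sense 2 and 4 against 30.14 and 30.15 in sense 1 and 3, the opposite order, and differed by 0.09. EI24, an endoplasmic reticulum protein of autophagy, had its highest readings in sense 1 and 3, at 32.55 and 32.56, with 31.91 and 32.18 in sense 2 and 4 and an antisense range of 32.07 to 32.16 (difference 0.20, SE 0.14). TP53I11 was at 29.31 ± 0.12 and 29.34 ± 0.17 in sense and antisense (SD, n = 4), with a difference of -0.03 whose 95% interval ran from -0.35 to 0.29. Of the genes that counter cell death, RPS27L, a ribosomal protein relative, stood at 33.53 and 33.16 in sense 2 and 4, above the range of the other 6 samples, 32.54 to 32.84 (difference 0.31, SE 0.18). TRIAP1, a small inhibitor of apoptosis, differed by 0.12 (SE 0.13).

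All 5 DNA repair and nucleotide supply genes had positive differences, with a median of 0.32. DDB2, which recognises ultraviolet damage for nucleotide excision repair and whose window held the paired decamers, read 31.49, 32.51, 31.51 and 32.92 in sense and 31.55, 32.09, 31.73 and 31.77 in antisense. Sense 2 and 4 were the highest samples, antisense 2 the next, and sense 1 and 3 the lowest. DDB2 differed by 0.32 (SE 0.20, adjusted p = 0.43), which was -0.14 among Cy3 and 0.78 among Cy5 samples. XPC, the other damage sensor of that pathway, differed by 0.31 (SE 0.14, adjusted p = 0.36), with sense 4 highest at 30.78. POLH, a polymerase that copies past damaged bases, differed by 0.34 (SE 0.20), nearly all of it among the Cy5 samples (0.70 against -0.02 among Cy3). A second POLH feature differed by 0.27, and the dimmest lay under the limits in both constructs.

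RRM2B, the p53-induced subunit of ribonucleotide reductase, differed in both dyes. It read 28.54, 28.20, 28.75 and 28.57 in sense and 27.91, 28.28, 27.86 and 27.75 in antisense. Sense 2, the lowest sense sample, lay under antisense 2, the highest antisense sample, and the other samples did not overlap. The difference was 0.57, or 1.48-fold (SE 0.19, adjusted p = 0.29), with 0.76 among Cy3 and 0.37 among Cy5 samples. ASCC3, a helicase of alkylation repair, had 3 features that disagreed, at 0.26 for the brightest and -0.30 and -0.09 for the others.

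SESN1, a sestrin that restrains growth signalling, was the only member whose constructs did not overlap by the representative feature, 1 of 30 where 3.36% of all genes lay higher in sense without overlap. Lower in sense without overlap were 0 of 30, where 3.5% of all genes were. It read 29.28, 29.65, 29.33 and 29.23 in sense and 29.19, 29.16, 29.08 and 29.08 in antisense, a small difference of 0.25 (SE 0.15, adjusted p = 0.42). The dimmer SESN1 feature differed by 0.26 and did overlap. TIGAR, which lowers fructose bisphosphate, an activator of glycolysis, differed by 0.04 (SE 0.14, 95% interval -0.26 to 0.35), and by -0.23 in its other feature.

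In both polo-like kinases sense 2 and 4 were the highest samples, as in DDB2. PLK3 read 29.00, 30.01, 28.93 and 30.73 in sense and 28.99, 29.43, 29.17 and 29.28 in antisense, with sense 2 and 4 far above the rest (difference 0.45, SE 0.24, adjusted p = 0.39). Among Cy5 samples PLK3 differed by 1.01, the largest such value of the members, and among Cy3 samples by -0.12. PLK2 read 29.65, 30.14, 29.23 and 29.73 in sense and 29.29 to 29.36 in antisense (difference 0.36, SE 0.17). Unlike in DDB2, sense 1 lay above the antisense samples, and sense 3 alone fell below them. CCNG2, which encodes cyclin G2, differed by 0.23, and its highest reading of 30.22 was in antisense 2. Its other feature differed by -0.17.

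SERTAD1, a transcriptional coregulator, had the largest difference of the members and stood outside the order of DDB2. It read 33.56, 32.54, 33.07 and 33.00 in sense and 32.63, 31.49, 32.66 and 32.97 in antisense. Sense 1 was highest and antisense 2 lowest by far, while sense 2 lay inside the antisense range. The difference was 0.60, or 1.52-fold (SE 0.27, adjusted p = 0.35), and ran from 0.32 to 0.91 as each sample was left out in turn. GDF15, a secreted stress cytokine, was the most variable member. It read 30.12, 31.80, 29.53 and 31.43 in sense and 29.91, 32.03, 29.93 and 30.24 in antisense. The 3 high samples were sense 2, sense 4 and antisense 2, so that its difference was 0.19 (SE 0.33, adjusted p = 0.79) and -0.22 without antisense 4. FBXO22, an F-box protein of ubiquitin ligases, had the most negative value, -0.19 (SE 0.13), against 0.12 in its other feature, and SUSD6 differed by 0.09 (SE 0.18).

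Few calls appeared under narrower sets of samples. Among the Cy3 samples alone, 4 of 30 members passed, AEN (0.89, adjusted p = 0.019), EI24 (0.48, adjusted p = 0.021), RRM2B (0.76, adjusted p = 0.031) and SERTAD1 (0.67, adjusted p = 0.035), all in limma with 2 samples per construct and all higher in sense, where 4.93% of all genes were called higher (of features, 11.5%, with 5.03% higher and 6.48% lower). Among the Cy5 samples 0 of 30 passed, where 0.0159% of all features did (0.00399% higher and 0.012% lower), and all 4 genes had smaller differences there (0.05, -0.08, 0.37 and 0.54). On the 6 samples that follow the submitters' criterion, without sense 4 and antisense 2, limma called 1 of 30 members, AEN (0.71, adjusted p = 0.039), where 4.25% of all features were called (1.65% higher and 2.6% lower). Both AEN calls rest on its brighter feature. The other AEN feature differed by -0.15 among the Cy3 samples and by -0.02 on the 6 samples.

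By brightest features, some p53 targets outside the list had larger differences than any member. Of 64 further targets listed, 48 were measured, and 31 had positive differences with a median of 0.10. By their brightest feature 0 of 48 passed in limma, with 12 (25%) at an unadjusted p under 0.05, compared with 15% of all genes. Sense 2 and 4 lay above sense 1 and 3 for 14 of the 48 (29.2%), where 28.6% of all genes had this order. They lay above all 6 other samples for 8 (16.7%), where 5.91% of all genes did. The dye interaction had an unadjusted p under 0.05 in limma for 3 of the 48, against 4.99% of all genes. The 3 of the 48 targets with the smallest p for the construct difference are described. CDKN1A, the gene of the cell cycle inhibitor p21, read 31.19, 31.57, 31.51 and 32.46 in sense and 30.26, 30.92, 30.11 and 30.17 in antisense. As in DDB2, sense 2 and 4 were the highest samples and antisense 2 the highest of antisense. Unlike in DDB2, all 4 sense samples of CDKN1A lay above all antisense samples. The difference was 1.32 (SE 0.22, adjusted p = 0.0999), and it was positive in both dyes (1.16 and 1.47). Of the 11 features of CDKN1A, feature 25127 alone passed, at an adjusted p of 0.0496. SPATA18, a mitochondrial quality control gene, differed by 1.29 (SE 0.27, adjusted p = 0.199) without overlap by its brightest feature, but by 0.19 (SE 0.24, adjusted p = 0.718) with overlap by the other. The zinc finger gene ZNF79 differed by 0.68 (SE 0.17, adjusted p = 0.23) and, by its other feature, 0.43, both without overlap. SAM called 4 of the 48 higher (CDKN1A, SPATA18, ZNF79 and EPHA2) and 0 lower. Of all 13469 genes by brightest feature it called 200 higher and 21 lower (of features, 1.6% higher and 0.207% lower).

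The upstream regulators of p53 showed no common direction. Of 32 listed, 29 were measured, 14 with positive differences and a median of -0.02, and 0 passed in limma, with 6 (20.7%) at an unadjusted p under 0.05, compared with 15% of all genes. SAM called 1 of the 29, TP73, a p53 relative, higher, and its difference over all 8 samples was 0.50 (SE 0.23, adjusted p = 0.359 in limma). The smallest p-values belonged to the ubiquitin ligases RCHY1, at -0.43 (SE 0.14), and COP1, at 0.30 (SE 0.11), and to the acetyltransferase EP300, at 0.59 (SE 0.23), whose other features differed by -0.0015 to 0.38. By the brightest feature COP1 readings did not overlap between the constructs, at 31.63 to 31.85 in sense and 31.39 to 31.46 in antisense, but by its other feature, with a difference of 0.20, they did.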

How the data were processed

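Agilent Feature Extraction 9.5 read the images, per the submitters' processing notes. Per the series' design text, features counted as expressed if brighter than negative controls by 3 SD, and were kept only where all replicates of a construct gave the same answer. The deposited values are linear intensity, scaled by the authors by the 40% trimmed mean. No source used here gives the absolute scale or the corrections for background and dye. Of 45015 features 25094 had values, and were used unchanged as log2. Gene names came from the platform annotation, with symbols checked by gene ID.

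Each sample's detection limit was inferred as the value that left fewest features above it in only some samples of a construct. On the log2 scale the limits were 24.57 to 25.515 in sense and 25.49 to 26.11 in antisense. With these limits 99 features were detected in sense only and 4 in antisense only. For a member feature under the limit in 1 construct, a fold bound is given as "at least" only where it exceeded 1.

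Sense minus antisense was fitted with limma 3.58.1 in R 4.3.3 (mean-variance trend, dye as covariate, 8 samples, Benjamini-Hochberg over 25094 features, threshold 0.05). In simulated data with 4 against 4 samples and 25094 features, 48% of changes of 1 and 96% of changes of 2 (log2) were recovered. The simulated noise was independent between features, without dye effects or shifts shared by genes in a sample. Changes as small as the median difference of the members were not simulated. SAM was rewritten with 20 label permutations, an estimated false discovery rate of at most 5.4% and a 1.4-fold filter. Alternatives covered dye, normalization, filter, pseudocount, left-out samples and blocks. The number of samples limits the precision. Members and lists were chosen with earlier results of these data known; every measured member is named, and of the other lists the 3 genes with the smallest p where no brightest feature passed.

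Replicate numbers were not used to pair the samples in the main fit. Deviations of same-numbered samples correlated at 0.285, 0.000848, 0.112 and -0.110 for replicates 1 to 4. Differently numbered samples were not correlated for comparison, so whether the numbers pair the samples was not settled. Column medians were equal or nearly so for replicates 1 and 2, and for 3 and 4, of each construct. The labels do not say whether such pairs share an array, so they were tried as a random block.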

Additional observations from a re-analysis of the deposited data

Results flagged for a closer look

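GDF15 in antisense 2 read 32.03 against 29.91 to 30.24 in the other antisense samples, a gap of 0.844 of the whole range and above Dixon's 95% limit for 4 samples. It was the only such value among 60 series of 4 samples, the 30 members in each construct, where about 1 in 20 would be marked by chance.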

How the results depend on the processing

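The median difference of the members stayed positive in all alternatives, between 0.07 among Cy3 and 0.47 among Cy5 samples, and between 0.19 and 0.35 as each sample was left out. The number of members past the threshold was 0 in all alternatives but 2, at 4 among Cy3 samples and 1 on the 6 samples of the stated design. The number of features past the threshold, 17, became 2888 within Cy3, 4 within Cy5, 1066 on the 6 samples, 453 by SAM, 10 with detected features only, 10 without a trend, 11 with a pseudocount, 7 with the dye interaction, and 4 to 20 as each sample was left out. It was 7 with the replicate number as a block and 7 with the presumed array pairs as a random block, an alternative chosen after seeing the data; neither block moved the member count from 0. Of 630 alternative values of single members, 34 changed sign and 5 gained a call. Within Cy3 the values turned for MDM2 (-0.16), FAS (-0.24), TNFRSF10B (-0.32), PERP (-0.20), TP53I11 (0.0746), ZMAT3 (-0.0249), RPS27L (-0.0949), DDB2 (-0.14), POLH (-0.0231), TIGAR (-0.13), PLK3 (-0.12), GDF15 (-0.0911) and SUSD6 (-0.27), and within Cy5 for EI24 (-0.0848). On the 6 samples, by limma and SAM alike, they turned for TNFRSF10B (-0.017), TP53I11 (0.0235), TIGAR (-0.0561) and SUSD6 (-0.13), and TIGAR also after median centring (-0.0198). Leaving out a sample gave ranges across 0 for MDM4 (-0.0178 to 0.30), CCNG1 (-0.0163 to 0.73), FAS (-0.32 to 0.56), TP53I11 (-0.10 to 0.0137), TIGAR (-0.0721 to 0.10), GDF15 (-0.22 to 0.49) and SUSD6 (-0.0447 to 0.21). Leaving out at least 1 of the samples moved the difference by over 1.5 times for 26 of 30 members, all but AEN, FBXO22, RRM2B and XPC. The cause was not tested.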
